A study of Mus musculus with 38 samples.

Results

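Dermal papilla (DP) cells were compared with hair germ (HG) cells of resting hair follicles, gene by gene, in 4 bulk RNA sequencing libraries of wild type (WT) mouse dorsal skin at postnatal day 56 (P56). The comparison had 2 libraries per cell type, out of 38 libraries in the series, and values were FPKM (sequenced fragments scaled to transcript length and to library size). Genes entered the comparison when they were protein-coding, were listed in the tables of both cell types and reached 1 FPKM in at least 2 of the 4 libraries, which left 12442 of the 14952 protein-coding genes that both tables list. WT follicles are in telogen at P56 and in anagen at P30. Beside the WT P56 groups, 2 libraries each were available of WT DP at P30, mutant DP at P30 and P56, and mutant HG at P56, where mutant mice carry an oncogenic *Nras* driven by the tyrosinase promoter, which is active in melanocytes. GEO's labels and the methods name no allele or treatment for the WT mice of these libraries, the gates used to sort DP and HG cells are not stated in those sources, and although the methods describe the bulk samples as biological replicates, the labels do not tie the 2 libraries of a group to separate animals.

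The DP is a cluster of mesenchymal cells at the base of the hair follicle, and the HG is the small group of epithelial progenitors that sits directly on top of it in telogen. Signals exchanged across the basement membrane between them decide when a follicle leaves rest. WNT signals, R-spondins and some fibroblast growth factors act towards growth. BMPs hold the follicle in rest, and their antagonists, such as noggin, release it. A secreted ligand acts on cells that carry the matching receptor, so the comparison asks on which side each ligand and each receptor is transcribed.

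Most markers of each label stood higher in the cells of that label. Of 18 DP markers, such as *Crabp1*, *Corin*, *Sox2* and *Enpp2*, all 18 reached 1 FPKM in DP library 2 and 16 in DP library 1. Their summed level was 1940 FPKM in DP library 1 and 4350 in DP library 2, against 5.41 and 6.90 in the HG libraries. Thus DP library 1 held less than library 2, and both held less than the other DP libraries, whose sums ran from 5157 to 12398. Of 16 HG markers, 12 were far higher in HG, among them *Krt14* at 6514 and 6700 FPKM in HG and 45.3 and 89.9 in DP, and *Cdh3*, which encodes the P-cadherin that marks HG cells, at 17.9 and 17.4 FPKM in HG and 0.26 and 0.70 in DP. *Tgfb2* was on the DP side, and *Lgr5*, *Gli1* and *Tnfrsf19* did not pass the criterion given below. The HG list includes general epithelial genes such as *Krt5*, *Krt14* and *Epcam*, so its count does not separate HG from other epithelium. *Cd34*, which HG cells are known to lack, read 4.17 and 4.25 FPKM in HG and 114 and 106 in DP. It is 1 of 9 bulge markers in the comparison, of which 3 were called in DP, 3 in HG and 3 in neither. The bulge list summed to 637 and 460 FPKM in DP and to 3586 and 3650 in HG. Of the HG sums, *Krt15*, which is also on the HG list, made up 3141 and 3196. The markers therefore do not show whether the HG libraries are free of bulge cells.

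The WT P56 DP libraries also carried markers of other cell types. The mural and smooth muscle list summed to 4345 and 3857 FPKM in WT P56 DP, to 684 to 1185 in mutant P56 DP and to 255 to 413 in the P30 libraries, with *Acta2* at 2977 and 2773 FPKM, *Des* at 639 and 542 and *Myh11* at 249 and 221, while *Rgs5*, a pericyte marker, read 2.04 and 1.52. The Schwann cell list summed to 1151 FPKM in DP library 1 and 493 in library 2, against 38.0 to 73.6 in the 6 other DP libraries and at most 9.78 in any HG library, and all 6 of its genes were far higher in DP than in HG. The fibroblast list summed to 5246 and 5607 FPKM in DP. Melanocyte, endothelial and immune markers were mixed. *Tyr* was listed at 0 in both DP libraries, *Cdh5* read 0.68 and 0.58, and *Ptprc* read 0 and 0.28. In DP libraries 1 and 2, 5 and 6 of 8 endothelial markers and 7 and 8 of 10 immune markers reached 1 FPKM. Of 8 melanocyte markers, 3 and 6 did. Called higher in DP were 2 melanocyte markers, 1 endothelial marker and 1 immune marker. The endothelial list summed to 14.7 and 22.4 FPKM in DP and to 5.42 and 3.98 in HG. The melanocyte list summed to 244 and 89.5 FPKM in DP, of which *Sox10*, shared with the Schwann list, made up 215 and 55.3, and the immune list summed to 222 and 82.4, of which *Lyz2* made up 196 and 34.8. Keratin and junction genes summed to 192 and 270 FPKM in DP and to 11127 and 11402 in HG, and genes of differentiated epidermis to 673 and 618 in HG. In bulk samples, fewer cells of a type and less RNA per cell cannot be told apart.

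**Figure D1:**
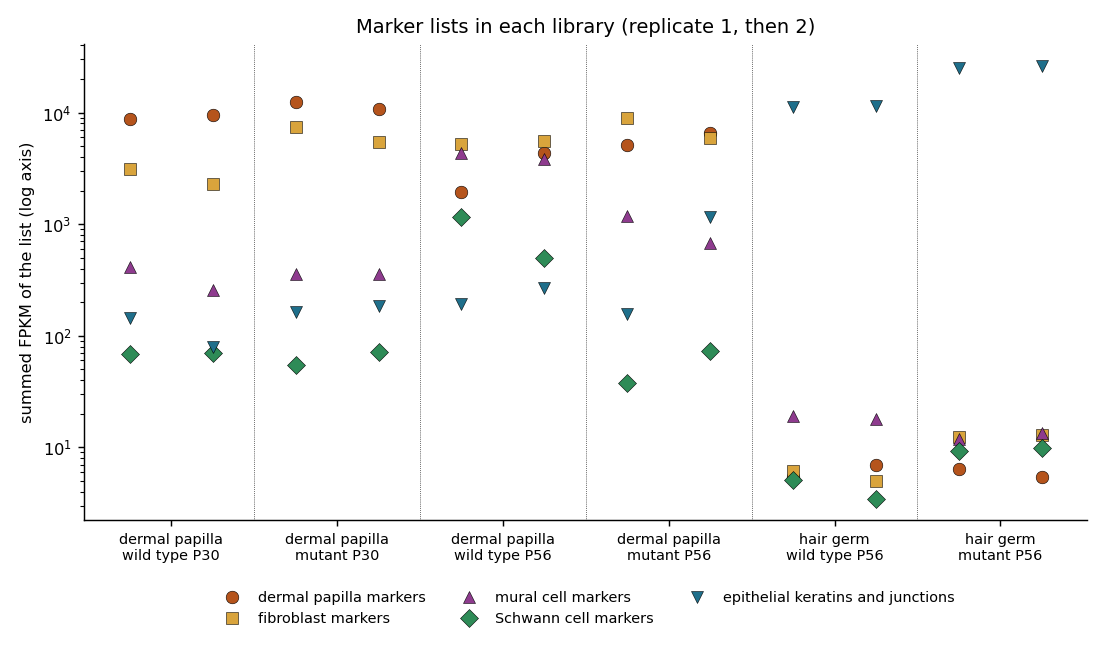
Summed FPKM (log axis) of the marker lists in each of the 12 DP and HG libraries, replicate 1 then replicate 2 of each group. The DP and fibroblast lists separate the 8 DP from the 4 HG libraries, and the mural and Schwann lists stand highest in the 2 WT P56 DP libraries.

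A gene was called where the lower library of one cell type stood 4-fold or more above the higher library of the other, on log2(FPKM + 1) after the 4 libraries were rescaled by median ratios. The gap between those nearest libraries and the difference of the group means are both given below on that log2 scale, which understates the change of genes near 0. The cell types come from separate tables, so cell type and table cannot be told apart, and no p-value was computed between them. By this criterion 1003 genes (8.06%) were higher in DP, 625 (5.02%) were higher in HG, and 10814 were not called, although the libraries of the 2 cell types did not overlap at 10308 genes (82.8%). Libraries of a group were far closer than this: the 2 DP libraries were 4-fold or more apart at 78 genes (0.627%) and the 2 HG libraries at 8 (0.0643%). The median absolute difference between replicates was 0.29 in DP and 0.09 in HG, and none of 20 housekeeping genes was called. Of the called genes, 402 on the DP side and 323 on the HG side reached 1 FPKM in all 4 libraries, and the rest passed the filter mainly through the cell type in which they were high, so a large difference was built into their selection. The smallest called gap was 2.0005 and the largest gap not called was 1.9997.

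**Figure D2:**
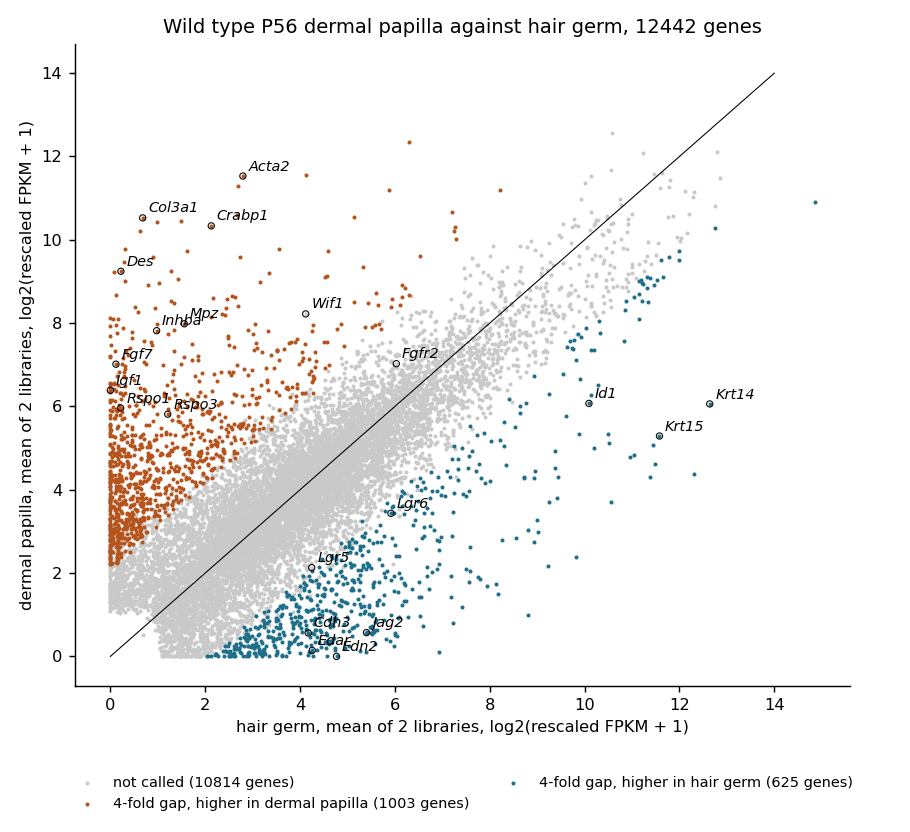
Mean log2(rescaled FPKM + 1) of 12442 genes in HG (x axis) and DP (y axis), mean of 2 libraries each. Coloured points are the 1003 genes called higher in DP and the 625 called higher in HG.

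Matrix, contractile and papilla genes had the widest gaps on the DP side. *Col3a1*, a fibrillar collagen, read 1482 and 1384 FPKM in DP and 0.93 and 0.37 in HG, a difference of 9.84 with a gap of 9.57. *Col1a1* differed by 9.59, and *Col1a2* by 8.12. *Enpp2*, the enzyme autotaxin that makes lysophosphatidic acid, read 596 and 1202 FPKM in DP and 0.23 and 0.27 in HG. The other genes with the widest gaps were *Mfap4*, *Apod*, *Dcn*, *Vim* and *Fgl2*, with differences from 8.59 to 9.43, and the smooth muscle genes *Actg2*, *Des* and *Acta2*, with differences of 9.18, 9.02 and 8.74. *Des* read 11.2 and 15.3 FPKM in mutant P56 DP and 28.0 and 1.51 in WT P30 DP, and like *Acta2* it is a member of the mural list.

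On the HG side, the widest gap belonged to *Akr1c18*, an aldo-keto reductase that inactivates progesterone. It read 5229 and 5324 FPKM in HG and 19.6 and 18.6 in DP, a difference of −7.95. *Defb6*, a beta-defensin, read 939 and 942 FPKM in HG against 4.52 and 3.73 in DP. *Fgfbp1*, a secreted carrier that releases FGFs from the matrix, read 600 and 637 FPKM in HG against 2.90 and 3.90 in DP. *Fxyd3*, *Apoc1*, *Tnfrsf18*, *Krt15* and *Aadac* followed, with differences from −7.08 to −6.29. Several of the widest gaps belong to genes with near-identical relatives among which reads can be split, so their single values are uncertain: *Akr1c18* and *Akr1c19*, the chemokine gene *Ccl27a* with *Gm13306* and *Ccl27b*, and *Gm10020*, which a later annotation classes as a processed pseudogene.

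Regulators of the epithelial and mesenchymal states divided the same way, though these 4 genes were picked after their values were seen. *Zeb2*, a repressor of epithelial genes, read 69.5 and 70.3 FPKM in DP and 0.18 and 0.18 in HG, and *Zeb1* read 10.7 and 7.46 FPKM in DP and 0.24 and 0.03 in HG. *Ovol1*, an epithelial regulator that opposes them, read 2.25 and 3.67 FPKM in DP and 69.8 and 68.6 in HG, and *Grhl2* read 0.24 and 0.14 FPKM in DP and 19.1 and 15.4 in HG. Zeb proteins are known to bind the E-box CAGGTG. On either strand it lies in the promoters (250 bases before to 50 after the start) of 6098 of 27025 genes (22.6%) in RefSeq on GRCm38.p6. Promoters were found for 1154 of the 1628 called genes (70.9%), too few to compare the called sets. Shown here, because they hold the letters and belong to genes far higher in HG, are the 200 bases before the start of *Krt5* (chr15:101712906-101713105, minus strand), *Epcam* (chr17:87635779-87635978, plus strand) and *Edar* (chr10:58675697-58675896, minus strand), written 5′ to 3′ with the E-box or its reverse complement in capitals. A match describes these letters and not a bound site.

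Krt5: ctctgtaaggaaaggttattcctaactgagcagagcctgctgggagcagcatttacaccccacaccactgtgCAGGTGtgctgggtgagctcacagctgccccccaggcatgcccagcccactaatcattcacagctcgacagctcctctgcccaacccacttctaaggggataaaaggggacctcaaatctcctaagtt
Epcam: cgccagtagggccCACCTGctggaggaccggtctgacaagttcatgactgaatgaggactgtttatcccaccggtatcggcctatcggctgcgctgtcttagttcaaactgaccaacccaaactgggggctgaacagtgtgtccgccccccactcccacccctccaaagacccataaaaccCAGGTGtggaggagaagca
Edar: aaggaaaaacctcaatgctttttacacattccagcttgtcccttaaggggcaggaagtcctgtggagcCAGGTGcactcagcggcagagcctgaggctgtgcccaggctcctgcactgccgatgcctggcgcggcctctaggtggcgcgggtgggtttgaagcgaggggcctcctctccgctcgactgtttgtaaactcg

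*Krt5*, the basal keratin, read 28.6 and 25.01 FPKM in DP and 2182 and 2166 in HG. *Epcam*, an epithelial adhesion molecule, read 3.77 and 6.72 FPKM in DP and 200 and 197 in HG. *Edar*, the receptor for ectodysplasin, is taken up again below.

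Signalling genes were counted over 15 lists with 419 genes, of which 331 entered the comparison. Of these, 89 (26.9%) were higher in DP, beside 8.06% of all genes, and 31 (9.37%) were higher in HG, beside 5.02% of all genes. Of the called genes, 51 on the DP side and 13 on the HG side reached 1 FPKM in all 4 libraries. By role, 34 of 111 ligands and R-spondins, 26 of 124 receptors, 12 of 41 antagonists and binding proteins and 5 of 22 target genes were higher in DP. On the HG side the counts were 15 ligands, 6 receptors, 4 antagonists and binding proteins and 2 targets. The median difference over the 331 genes was 0.81, beside −0.01 over all genes. Among the 89 genes higher in DP, 16 were 2-fold or more higher in DP library 2 than in library 1, and 9 were 2-fold or more higher in library 1. Counts of the single lists below are to be read beside the 8.06% of all genes called in DP and the 5.02% called in HG.

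**Figure D3:**
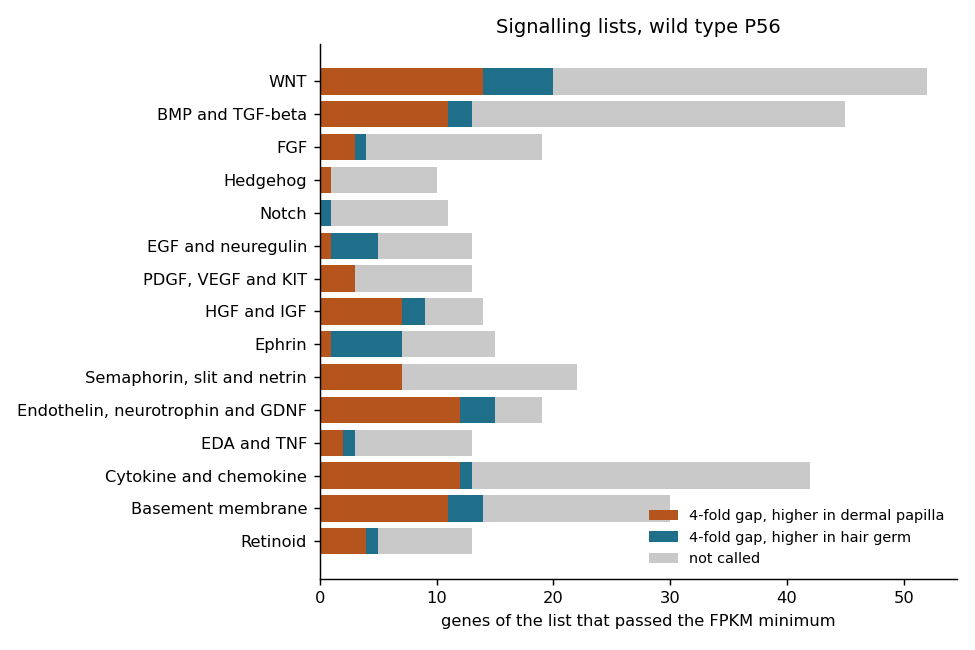
Number of genes of each signalling list called higher in DP, called higher in HG, or not called in WT P56 libraries. DP calls outnumber HG calls in 12 lists, and HG calls outnumber DP calls in the ephrin, EGF and neuregulin, and Notch lists.

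Among WNT genes, R-spondins stood on the DP side and their receptor *Lgr6* on the HG side. R-spondins are secreted amplifiers of WNT signalling that act through *Lgr4*, *Lgr5* and *Lgr6*. *Rspo1* (chr4:124986430-125009099, GRCm38) read 59.9 and 59.3 FPKM in DP and 0.16 and 0.18 in HG, a difference of 5.74. *Rspo3* read 28.4 and 101 FPKM in DP and 1.28 and 1.45 in HG, a difference of 4.60. *Rspo4* read 7.56 and 63.5 FPKM in DP and 0.12 and 0.07 in HG, a difference of 4.47. The DP libraries agreed closely for *Rspo1* and stood far apart for *Rspo3* and *Rspo4*, yet the lower DP library was above both HG libraries for each gene. *Rspo2* is listed for DP alone, at 1.45 and 41.7 FPKM.

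The R-spondin receptors did not share one pattern. *Lgr6* (chr1:134983301-135105276, GRCm38) read 11.5 and 7.87 FPKM in DP and 64.5 and 58.8 in HG, a difference of −2.48 with a gap of −2.18. *Lgr5* read 2.94 and 3.66 FPKM in DP and 18.5 and 18.8 in HG, and its gap of −1.97 fell just short of a call. *Lgr4* overlapped, at 5.33 and 13.9 FPKM in DP and 14.8 and 16.0 in HG. Without DP library 2, *Lgr5* was called as well. The call uses the nearest libraries, so leaving out 1 widens gaps. Signalling calls rose from 89 in DP and 31 in HG to 98 and 37 without DP library 2. They rose to 108 and 35 without DP library 1. In that setting *Wif1*, *Nog*, *Wnt5a*, *Ptch1* and *Bmp4*, not called with all 4 libraries, were among those called in DP.

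WNT ligands were divided between the compartments. *Wnt4* read 1.04 and 0.60 FPKM in DP and 18.6 and 19.8 in HG, and *Wnt3*, a canonical ligand, read 0.09 and 0.50 FPKM in DP and 8.37 and 8.28 in HG. *Ndp*, which encodes norrin, a Frizzled4 ligand of another family, read 12.8 and 31.1 FPKM in DP and 1.08 and 1.33 in HG. *Wnt16* read 30.2 and 35.2 FPKM in DP and 4.34 and 3.44 in HG. *Wnt5a*, a non-canonical ligand, read 7.41 and 61.9 FPKM in DP and 1.5 and 2.05 in HG, so both DP libraries were higher, but DP library 1 was too close to HG for a call. Of the receptors, *Fzd1* and *Ror2* were higher in DP, by 2.36 and 2.38, and *Fzd6* was higher in HG, with a difference of −2.89. *Wnt7a* is listed for HG alone, at 1.97 and 2.03 FPKM.

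Of 12 WNT antagonists, 3 were called in DP, 2 in HG and 7 in neither. *Notum*, an enzyme that strips the lipid from WNT ligands, read 122 and 193 FPKM in DP and 9.54 and 7.48 in HG. *Sfrp2*, a decoy receptor, read 32.9 and 169 FPKM in DP and 1.99 and 1.28 in HG, and *Dkk3* read 269 and 112 FPKM in DP and 16.7 and 17.1 in HG. *Dkk2*, listed for DP alone, read 50.5 and 45.9 FPKM. *Wif1*, which binds WNT ligands, read 51.6 FPKM in DP library 1, 1598 in DP library 2 and 17.1 and 16.9 in HG, and was not called. The HG side held *Kremen2*, a co-receptor of Dickkopf proteins, at 8.25 and 9.11 FPKM, and *Rnf43*, a ubiquitin ligase that removes Frizzled receptors, at 8.13 and 7.99, against 0.17 or less in DP. *Sostdc1*, an inhibitor of both WNT and BMP signals, overlapped, at 98.6 and 406 FPKM in DP and 299 and 309 in HG.

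Of 7 WNT target genes, 4 were higher in DP. *Lef1*, a transcription factor that carries the WNT signal, read 68.1 and 91.0 FPKM in DP and 10.9 and 10.5 in HG. *Nkd2*, a feedback inhibitor, read 113 and 136 FPKM in DP and 1.31 and 1.11 in HG, and its relative *Nkd1* differed by 4.20. *Trps1* differed by 3.75.

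Of 5 FGF ligands, 2 (*Fgf7* and *Fgf2*) were called in DP and 3 in neither, and of 5 FGF receptors none was called. *Fgf7* (chr2:126034658-126091185, GRCm38), known as keratinocyte growth factor, read 78.5 and 198 FPKM in DP and 0.04 and 0.14 in HG, a difference of 6.90. *Fgf10*, which signals through the same receptor, is listed for DP alone, at 7.43 and 34.7 FPKM. *Fgfr2* read 109 and 145 FPKM in DP and 67.6 and 65.7 in HG, a difference of 0.997 that was not called. Values are per gene, so splice forms of a receptor cannot be told apart here. *Fgf2* read 6.15 and 7.42 FPKM in DP and was listed at 0 and 0.01 in HG. The FGF-responsive transcription factors split, with *Etv4* at 0.51 and 0.82 FPKM in DP and 15.5 and 15.0 in HG, and *Etv1* at 147 and 71.4 FPKM in DP and 0.06 and 0.44 in HG.

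In the BMP and TGF-beta list, 11 of 45 genes were higher in DP and 2 in HG. *Inhba*, a subunit of activin A, read 122 and 390 FPKM in DP and 1.11 and 0.90 in HG, the largest difference of the list at 6.84. *Gdf10*, *Tgfb2* and *Bmp7* were also higher in DP, by 4.35, 2.88 and 2.33. *Bmp4* read 47.8 and 118 FPKM in DP and 14.8 and 12.6 in HG, and *Bmp2* overlapped, at 9.33 and 27.1 FPKM in DP and 17.5 and 18.2 in HG, and neither was called. *Bmp6*, listed for DP alone, read 0.15 and 11.1 FPKM. *Gdf5* was on the HG side, at 5.77 and 4.79 FPKM in HG and 0 and 0.11 in DP.

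Of 14 antagonists and binding proteins of this family, 4 were called in DP, 0 in HG and 10 in neither, and of 6 targets 1 was called, in HG. *Fstl1* differed by 6.03 and *Ltbp1*, which holds latent TGF-beta in the matrix, by 5.54. *Grem1*, a BMP antagonist, read 24.8 and 21.3 FPKM in DP and 2.4 and 2.38 in HG. *Nog*, which encodes noggin, read 1.76 and 25.4 FPKM in DP and 0 and 0.10 in HG, so the DP libraries disagreed and it was not called. *Id1*, a direct target of BMP signalling, read 83.7 and 49.6 FPKM in DP and 1084 and 1178 in HG, a difference of −4.02. Of the receptors, *Eng* differed by 4.94, *Acvrl1* by 2.34 and *Tgfbr2* by 2.16, all towards DP. *Bmpr1a*, the main BMP receptor of epithelium, differed by −0.44 and was not called.

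**Figure D4:**
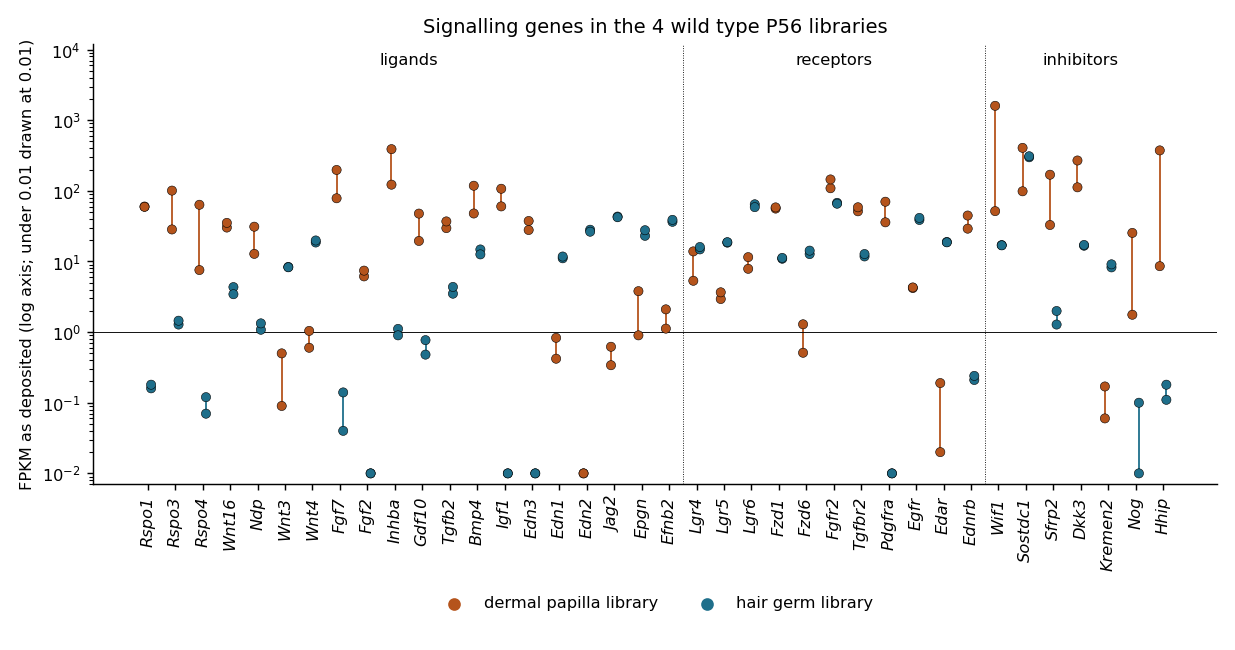
FPKM as deposited (log axis, values under 0.01 drawn at 0.01) of selected signalling genes in the 2 DP and 2 HG libraries of WT P56 skin. The 2 HG libraries lie close together except near 0, while the DP libraries separate for Wif1, Hhip, Nog and Rspo4.

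In the hedgehog list 1 of 10 genes was called and in the Notch list 1 of 11, beside 13.1% of all genes. *Hhip*, a decoy receptor for hedgehog ligands, was the one called in DP and read 8.58 and 374 FPKM in DP and 0.11 and 0.18 in HG. *Ptch1* read 4.79 and 25.4 FPKM in DP and 2.25 and 2.06 in HG, *Gli1* read 5.90 and 13.2 FPKM in DP and 3.10 and 3.53 in HG, and neither was called. *Shh*, listed for DP alone, read 0 and 0.11 FPKM, and *Dhh*, listed for DP alone, read 113 and 49.5. *Dhh* is a ligand that Schwann cells are known to make, and like the Schwann list it was higher in DP library 1 than in library 2. The part of Schwann cells in its value was not tested. *Jag2*, a Notch ligand, was the 1 gene of 11 called in the Notch list, at 0.62 and 0.34 FPKM in DP and 43.2 and 42.3 in HG.

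EGF family genes and ephrins leaned towards HG. *Egfr* read 4.21 and 4.29 FPKM in DP and 38.7 and 41.4 in HG, a difference of −2.88. Its ligand *Epgn* (epigen) read 0.90 and 3.80 FPKM in DP and 23.1 and 27.7 in HG, and *Nrg4* differed by −2.59. Of 3 antagonists in this list, *Lrig1* was higher in HG, with a difference of −2.27, and *Errfi1* was higher in DP, at 722 and 1387 FPKM against 162 and 158. The third, *Lrig3*, was not called. In the ephrin list, 6 of 15 genes were higher in HG and 1 in DP. *Efnb2* read 1.12 and 2.1 FPKM in DP and 36.4 and 38.8 in HG, and *Efna1* read 11.5 and 14.6 FPKM in DP and 192 and 184 in HG. Of the ephrin receptors, *Epha2* and *Epha1* were also higher in HG, with differences of −3.05 and −2.39. *Epha7* was higher in DP by 3.65. *Ephb4*, which is paired with *Efnb2* below, differed by 0.99 and was not called.

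PDGF, VEGF and KIT genes were called in DP for 3 of 13 genes, and HGF and IGF genes in DP for 7 and in HG for 2 of 14. *Pdgfra*, the receptor that marks dermal fibroblasts and papilla cells, read 35.9 and 70.1 FPKM in DP and was listed at 0 in both HG libraries. Its ligand *Pdgfa* read 64.9 and 30.8 FPKM in DP and 98.6 and 101 in HG, a difference of −1.04 that was not called. *Igf1* read 107 and 60.2 FPKM in DP and was listed at 0 in both HG libraries. Of 6 IGF binding proteins, 4 were higher in DP, led by *Igfbp7* at 1501 and 1520 FPKM against 5.76 and 5.39, and *Igfbp2* was higher in HG, at 42.1 and 71.7 FPKM in DP and 433 and 392 in HG. *Csf1* and *Pgf* were higher in DP, by 3.38 and 2.62. *Hgf*, listed for DP alone, read 0.50 and 2.07 FPKM, and its receptor *Met* was not called, at 3.30 and 2.28 FPKM in DP and 5.61 and 7.99 in HG.

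The endothelin, neurotrophin and GDNF list had 15 of 19 genes called, 12 of them in DP. Endothelins were split by member: *Edn3*, a factor for melanocytes, read 27.9 and 37.4 FPKM in DP and 0 and 0 in HG, whereas *Edn2* read 0 and 0 FPKM in DP and 28.1 and 26.4 in HG, and *Edn1* read 0.42 and 0.83 FPKM in DP and 11.1 and 11.8 in HG. *Ednrb* was higher in DP, at 29.2 and 44.7 FPKM against 0.21 and 0.24. The neurotrophins *Bdnf* and *Ntf3*, the factor *Gdnf* and the receptors *Ngfr*, *Ntrk2*, *Ntrk3*, *Gfra1*, *Gfra2* and *Gfra3* were all higher in DP, with differences from 2.77 to 5.07. *Ngfr*, itself on the Schwann list, read 116 and 42.6 FPKM in DP and 1.67 and 1.2 in HG, and *Gfra3* read 48.2 and 20.7 FPKM in DP and was listed at 0 in HG. *Bdnf*, *Gdnf*, *Ngfr* and *Gfra3* were higher in DP library 1, where the Schwann list was 1151 FPKM, than in library 2, where it was 493, and the part of Schwann cells in these values was not tested.

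Semaphorins, slits and netrins were called in DP alone, 7 of 22 genes. *Sema3b* read 518 and 203 FPKM in DP and 0.40 and 0.49 in HG, the widest difference of these guidance genes at 7.87. *Slit2* read 23.6 and 23.1 FPKM in DP and was listed at 0 in HG, and its receptor *Robo2* differed by 4.67. *Ntn1* read 14.4 and 11.2 FPKM in DP and 0.03 and 0.01 in HG. *Sema3b*, like the Schwann list, was higher in DP library 1, and the part of Schwann cells in its value was not tested.

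In the EDA and TNF list, the one HG call was the receptor *Edar*. It read 0.02 and 0.19 FPKM in DP and 18.9 and 18.7 in HG, a difference of −4.11, and its promoter is printed above. The TNF family ligands *Tnfsf12* and *Tnfsf11* were higher in DP, by 3.97 and 3.23. Ectodysplasin itself, *Eda*, differed by 1.28 and was not called.

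Of 20 cytokine and chemokine ligands, 7 were called in DP, 1 in HG (*Ccl27a*) and 12 in neither. Of all genes, 8.06% were called in DP and 5.02% in HG. *Mdk*, which encodes the heparin-binding growth factor midkine, read 55.9 and 355 FPKM in DP and was listed at 0 in both HG libraries. *Spp1*, which encodes osteopontin, read 50.3 and 66.8 FPKM in DP and 0.50 and 0.56 in HG, a difference of 5.33. Its receptor *Cd44* read 109 and 124 FPKM in DP and 28.6 and 33.7 in HG, a difference of 1.96 with a gap of 1.75, which was not called. *Ccl2* read 545 and 444 FPKM in DP and 7.49 and 8.84 in HG, and *Rarres2*, which encodes the chemoattractant chemerin, differed by 6.48. *Il6* and its signalling chain *Il6st* differed by 3.82 and 2.44 towards DP.

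Basement membrane genes were transcribed on both sides, with different subunits. The DP side held *Col4a1* at 160 and 155 FPKM against 7.65 and 7.15 in HG, with *Col4a2*, *Nid1*, *Lama2*, *Lamb1*, *Lamb2*, *Lamc1* and *Frem1*. The HG side held 3 genes, the hemidesmosomal collagen *Col17a1* at 190 and 183 FPKM against 1.86 and 5.12 in DP, and 2 chains of laminin 332, *Lamb3* at 57.6 and 53.6 against 1.46 and 2.02 and *Lama3* at 6.65 and 6.81 against 0.23 and 0.65. Integrins called in DP were *Itga1*, *Itga5* and *Itga8*, with differences of 4.66, 4.36 and 4.75. *Itga8*, the nephronectin receptor known from the arrector pili muscle, was 25.9 and 30.9 FPKM in WT P56 DP, where the mural list was also high, and 10.7 and 4.89 in mutant P56 DP. The part of mural and Schwann cells in the values of this list was not tested. Which membrane these transcripts belong to was not tested either.

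Retinoid genes included the widest signalling difference of all lists. *Crabp1*, a retinoic acid binding protein known as a papilla marker (chr9:54764748-54773110, GRCm38), read 892 and 1761 FPKM in DP and 3.04 and 4 in HG, a difference of 8.21. Enzymes that make and break retinoic acid were both on the DP side, with *Aldh1a3* at 10.9 and 78.4 FPKM against 0.22 and 0.23, and *Cyp26b1* at 22.2 and 23.2 against 0.32 and 0.28. *Aldh1a1*, another enzyme of synthesis, was on the HG side, at 0.87 and 3.90 FPKM in DP and 24.0 and 21.6 in HG.

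The ligands and receptors were then read as 71 textbook pairs, 58 of which had both genes in the comparison. In 1 pair, *Rspo1* with *Lgr6*, the ligand was called in DP and the receptor in HG, at 5.74 and −2.48. In 0 pairs the reverse held. These counts depend on which pairs were listed. *Lgr6* was paired with *Rspo1* alone, although *Rspo3* and *Rspo4* were also called in DP. *Wnt3* and *Wnt4*, called in HG, were not paired with *Fzd1*, which was called in DP. Both genes were called in DP in 6 pairs, among them *Tgfb2* and *Tgfbr2*, *Edn3* and *Ednrb*, *Bdnf* and *Ntrk2*, *Ntf3* and *Ntrk3*, and *Gdnf* and *Gfra1*, and in HG in 2 pairs (*Wnt4* and *Fzd6*, *Efna1* and *Epha2*). In 15 pairs the ligand was called in DP with the receptor not called, as for *Fgf7* and *Fgfr2*, *Inhba* and *Acvr2b*, *Mdk* and *Sdc4* or *Spp1* and *Cd44*, and in 4 pairs the ligand was called in HG with the receptor not called, as for *Jag2* and *Notch1* or *Efnb2* and *Ephb4*. The receptor alone was called in DP in 8 pairs and in HG in 5, among them *Eda* and *Edar*, and neither gene in 17. Without DP library 2 the number of opposite pairs was 2, since *Lgr5* was then called beside *Rspo3*, and without DP library 1 it was 1.

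**Figure D5:**
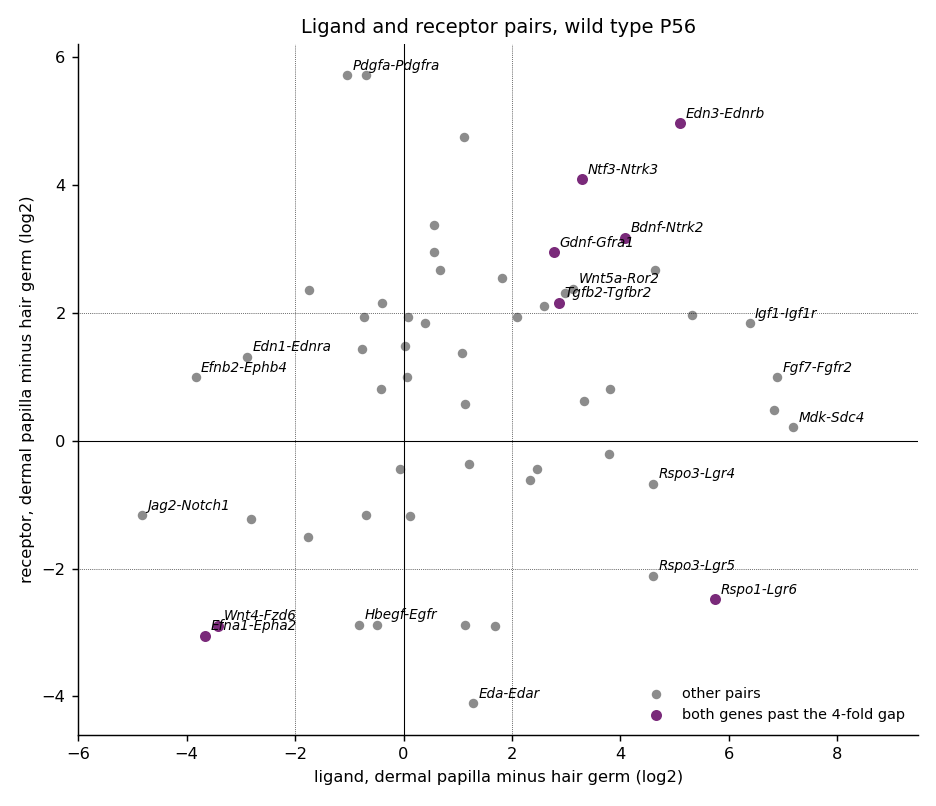
Difference between DP and HG (log2) of the ligand (x axis) and of the receptor (y axis) of the pairs with both genes in the comparison. Rspo1 with Lgr6 lies at the lower right, at 5.74 and −2.48, and 1 pair is not drawn.

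The comparison was repeated in mutant P56 libraries, which the WT comparison did not use, over the same genes. Sex differed between the mutant cell types. *Xist* read 0.02 and 0 FPKM in mutant DP and 22.9 and 25.2 in mutant HG, and *Ddx3y* 46.8 and 38.8 in mutant DP and 0 in mutant HG. Cell type and sex therefore cannot be told apart in the mutant comparison. Mutant DP library 2 stood apart in epithelial genes: the keratin and junction list summed to 1159 FPKM there and to 157 in mutant DP library 1, the HG markers to 1330 against 226, and *Krt14* read 599 against 65.3. With both libraries, 971 genes (7.80%) were higher in DP and 687 (5.52%) in HG. The genes called in both genotypes numbered 628 on the DP side, 62.6% of the WT and 64.7% of the mutant calls, and 382 on the HG side, 61.1% of the WT and 55.6% of the mutant calls. Without mutant DP library 2, 1151 genes were called in DP and 863 in HG, and those called in both genotypes numbered 696 and 441. The call uses the nearest libraries, so fewer libraries widen the gap, and counts without mutant DP library 1 were 650 and 395. The sign was the same in mutant cells for 967 of the 1003 WT DP genes and 614 of the 625 WT HG genes. Of the signalling genes, 65 of 89 on the DP side and 18 of 31 on the HG side had the same call, 22 and 12 were not called, and 3, among them *Wnt16* and *Aldh1a1*, had the opposite call.

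*Rspo1* and *Lgr6* were again on opposite sides in mutant P56 cells. *Rspo1* read 93.3 and 205 FPKM in DP and 0.14 and 0.06 in HG, and *Lgr6* read 5.10 and 6.47 FPKM in DP and 30.7 and 33.7 in HG. Opposite pairs numbered 6 there, the others being *Wnt10a* and *Fzd1*, *Nrg2* and *Erbb3*, *Pdgfa* and *Pdgfra*, *Edn1* and *Ednra*, and *Mdk* and *Sdc4*. *Lgr5* no longer differed by much, at 1.45 and 2.57 FPKM in DP and 2.07 and 1.43 in HG, and *Edar* read 0.06 and 0.29 FPKM in DP and 2.57 and 2.24 in HG. Of the DP genes that were uneven in WT P56, *Wif1* read 3270 and 3481 FPKM in the mutant, *Hhip* 477 and 540, *Wnt5a* 92.2 and 98.3, *Nog* 40.7 and 22.8 and *Rspo4* 395 and 755. These 5 genes, chosen after their values were seen, were all called in DP there. In the list of neurotrophins, *Ngfr* read 1.57 and 1.66 FPKM in mutant DP, where the Schwann list summed to 38.0 and 73.6 FPKM, and 7.23 and 8.43 in mutant HG.

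The signalling genes were next tested within each table, where limma on log2(FPKM + 1) gives Benjamini-Hochberg adjusted p-values. These comparisons use the same WT P56 libraries as above. Sex also differed between the DP groups: *Xist* read 22.4 and 22.7 FPKM in WT P56 DP and 0.02 or less in WT P30 and mutant P56 DP, where *Ddx3y* read 31.2 to 46.8, and *Ddx3y* was listed at 0 in WT P56 DP and in all 4 HG libraries. Age or genotype and sex therefore cannot be told apart in the DP comparisons. The same holds for cell type and sex where WT P30 DP libraries are set against HG. In WT DP, 89 of 349 signalling genes were higher at P56 than at P30 and 77 were lower, beside 10.1% and 11.0% of all 14122 genes tested, whose median change was −0.11.

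Of 111 ligands and R-spondins tested in WT DP, 37 were higher at P56 than at P30, 27 were lower and 47 were not called. The R-spondins and the FGF ligands *Fgf7* and *Fgf10* were among those that were lower, whereas *Pdgfa* (1.81), *Wnt10a* (1.95) and *Fgf1* (1.28) were higher and *Igf1* (0.21) and *Hgf* (0.22) were not called. *Fgf7* read 711 and 623 FPKM at P30 and 78.5 and 198 at P56, a change of −2.41 ± 0.37 (SE, adjusted p = 0.0017, limma). *Rspo1* changed by −1.74 ± 0.35 (adjusted p = 0.00582, limma), and *Rspo3* read 515 and 719 FPKM at P30 and changed by −3.48 ± 0.47 (adjusted p = 0.000871, limma). *Rspo4* changed by −5.41, *Fgf10* by −3.75 and *Edn3*, which read 762 and 898 FPKM at P30, by −4.64, all called. *Sostdc1* changed by −4.09, *Inhba* by −2.4, *Bmp4* by −1.61, *Wnt5a* by −2.24 and *Wif1* by −3.56, also called, and *Nog* (−1.90, adjusted p = 0.103, limma) and *Hhip* (−3.64, adjusted p = 0.0517, limma) were not. The DP markers moved with them, with a summed level of 8771 and 9468 FPKM at P30 against 1940 and 4350 at P56, and the part of papilla cell content in these changes was not tested.

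Genes that were higher in DP at P56 than at P30 included neurotrophin receptor, hedgehog, semaphorin and WNT genes. *Ngfr* read 2.02 and 0.42 FPKM at P30 and changed by 5.11 ± 0.47 (adjusted p = 0.000139, limma). *Dhh* changed by 5.46, *Sema3b* by 4.84, *Gfra3* by 4.11, *Wnt16* by 3.84, *Grem1* by 3.64 and *Gdnf* by 2.87, all called. The mural and Schwann lists were higher at P56 than at P30 as well, and their part was not tested. In the comparison with HG the difference was 4.95 for *Ngfr*, 2.87 for *Wnt16*, 2.90 for *Grem1* and 2.77 for *Gdnf* with P56 DP libraries, and −0.22, −1.03, −0.80 and −0.14 with the P30 DP libraries in their place, a setting chosen after the data were seen. With the P30 libraries 10 ligand and receptor pairs were on opposite sides, *Rspo1* with *Lgr6* among them.

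In P56 DP, 45 of 349 signalling genes were higher in mutant than in WT cells and 64 were lower, beside 5.0% and 7.19% of all genes tested. *Spp1* read 539 and 611 FPKM in mutant and 50.3 and 66.8 in WT DP, a change of 3.28 ± 0.20 (adjusted p = 3.72e-05, limma). *Rspo4*, *Rspo3*, *Fgf7* and *Rspo1* were higher in mutant DP by 4.54, 2.23, 1.75 and 1.2, and *Fgf10* by 2.33, all called. *Dhh*, *Ngfr*, *Gfra3*, *Sema3b* and *Wnt16* were lower, with changes of −5.29, −4.77, −4.55, −4.17 and −3.08. The marker lists moved with these changes: the DP list summed to 5157 and 6624 FPKM in mutant against 1940 and 4350 in WT DP, the Schwann list to 38.0 and 73.6 against 1151 and 493, and the mural list to 1185 and 684 against 4345 and 3857, and their part was not tested. The count of called genes rested on single libraries, since it fell from 109 to 71 without WT DP library 1 and to 69 without mutant DP library 2.

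In P56 HG, 40 of 285 signalling genes were higher in mutant than in WT cells and 74 were lower, beside 5.13% and 9.56% of all 12121 genes tested. The median of all genes was −0.26 on this scale, and changes below are to be read against that shift. *Epgn* rose from 23.1 and 27.7 FPKM to 428 and 434, a change of 4.04 ± 0.09 (adjusted p = 1.37e-05, limma). *Igfbp3* changed by 2.98, *Wnt3* by 2.48 and *Cd44* by 1.03, all called. *Lgr5* fell from 18.5 and 18.8 FPKM to 2.07 and 1.43, a change of −2.85 ± 0.14 (adjusted p = 6.08e-05, limma). *Wif1* changed by −3.38, *Lef1* by −3.21, *Notum* by −2.97, *Edar* by −2.54 and *Id1* by −1.92, all called, and *Lgr6* (−0.92) and *Jag2* (−0.72) changed by less than 2-fold. The genes of differentiated epidermis summed to 2136 and 1947 FPKM in mutant HG against 673 and 618 in WT HG, and their part was not tested.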

How the data were processed

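FACS-sorted cells of mouse dorsal skin were profiled by bulk RNA-seq. The authors made full-length cDNA with Smart-seq2, aligned paired reads with STAR 2.4.2 to GRCm38 (mm10) and quantified genes with RSEM; the deposited FPKM values carry no stated scaling between libraries and no read counts, so depth is unknown and counting intervals cannot be given. Listed FPKM summed to 590602 to 835066 in the 4 WT P56 libraries, and 11979 to 12865 genes reached 1 FPKM in each. Rows of the DP and HG tables were joined on the gene identifier. Symbols turned into dates were restored from identifiers, 25 in the DP and 23 in the HG table. There were 1891 protein-coding genes listed for DP alone (274 at 1 FPKM or more in both WT P56 libraries) and 623 for HG alone (22). Rows under 0.1 FPKM in every library numbered 0 in the DP and 1378 in the HG table.

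The 4 libraries were rescaled by median ratios (factors 0.958 to 1.04), and a gap of 4-fold between the nearest libraries on log2(FPKM + 1) was called, with no p-value. Within a table, log2(FPKM + 1) was modelled with limma 3.58.1 in R 4.3.3, using group means and an intensity trend of the variance, over protein-coding and long non-coding genes at 1 FPKM or more in 2 libraries. Calls needed a two-sided adjusted p under 0.05 and a change of at least 2-fold. No count model was used, since the tables hold no counts. These p-values rest on the spread between the 2 libraries of a group, pooled over all groups of the table and moderated across genes. Both steps were tested on simulated data. Named genes were the 12 with the widest gap in each direction and a mean of 5 FPKM or more, up to 4 called genes per signalling list, role and direction, a fixed set of follicle genes, and the genes of opposite pairs. Other genes shown complete a pair, a marker list or a comparison. The genes, lists and pairs were chosen with earlier results of these data known. Replicate numbers did not pair the samples. Alternatives changed the fold, pseudocount, scaling, filter, libraries and DP age. The values of 1 signalling gene are not reported here, and the counts include it. Positions come from GENCODE M21 and promoters from RefSeq. Python 3.11.15 was used with pandas 2.3.3, numpy 2.4.6 and matplotlib 3.10.9.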

Additional observations from a re-analysis of the deposited data

Results flagged for a closer look

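For *Aldh1a1*, *Il1r2*, *Mbp* and *Wnt16* the call between DP and HG had opposite directions in WT and mutant P56 libraries, with every DP library on one side of every HG library in each genotype. The difference between the genotypes was not tested across the tables, and sex differed between DP and HG in the mutant libraries. *Aldh1a1* differed by −2.89 in WT (DP 0.87 and 3.90 FPKM, HG 24.0 and 21.6) and by 2.37 in mutant cells (DP 30.7 and 46.4, HG 6.02 and 5.64). *Il1r2*, a decoy receptor for interleukin 1, differed by 2.22 in WT (DP 71.7 and 82.7 FPKM, HG 17.3 and 16.2) and by −2.07 in mutant cells (DP 52.2 and 57.5, HG 209 and 214), so its level moved mainly in HG. *Mbp*, which encodes myelin basic protein, differed by 4.73 in WT (DP 225 and 189 FPKM, HG 7.51 and 7.13) and by −3.18 in mutant cells (DP 1.1 and 1.79, HG 19.2 and 19.6), and the Schwann list summed to 1151 and 493 FPKM in WT against 38.0 and 73.6 in mutant P56 DP. The part of Schwann cells in the *Mbp* values was not tested. *Wnt16* differed by 2.87 in WT (DP 30.2 and 35.2 FPKM, HG 4.34 and 3.44) and by −2.81 in mutant cells (DP 3.33 and 2.63, HG 24.1 and 24.96). *Wnt16* thus exchanged sides with nearly equal levels.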

How the results depend on the processing

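Requiring a 2-fold gap gave 2137 genes in DP, 1748 in HG, 190 signalling genes and 4 opposite pairs, and an 8-fold gap gave 516, 259, 63 and 0. Opposite pairs numbered 2 with a pseudocount of 0.1, without rescaling, with upper quartile rescaling and without DP library 2, and 10 with P30 in place of P56 DP libraries. With those P30 libraries, an alternative chosen after the data were seen, *Gdnf* (−0.14), *Grem1* (−0.80), *Ngfr* (−0.22) and *Wnt16* (−1.03) changed sign. Each of these differences was too small for a call in HG. Leaving out 1 library gave 1041 to 1235 genes in DP, 667 to 812 in HG, 122 to 143 signalling genes, 1 to 2 opposite pairs and 1748 to 2014 genes in mutant cells. For the limma counts the ranges were 126 to 188 (DP, P56 against P30), 69 to 137 (DP, mutant against WT) and 80 to 108 (HG, mutant against WT). A fit with the replicate block gave 165, 111 and 114 called signalling genes beside 166, 109 and 114 without it, while deviations of same-numbered libraries correlated at −0.098 to 0.103, so the numbers were not taken as pairs. The other counts stayed within 1.5 times. With 2 libraries per group, unknown depth and 1 table per cell type, small differences between DP and HG cannot be judged.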

Other observations

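Genes listed for only 1 of the cell types were outside the comparison, and their values are given without a fold. Of those listed for DP alone, the matrix gene *Col6a3* read 118 and 171 FPKM in the WT P56 libraries, *Islr* read 48.3 and 187, the transcription factor *Ebf1* read 48.6 and 138, and *Nid2*, a basement membrane linker, read 67.5 and 41.3. Of those listed for HG alone, *Mettl7b* read 32.4 and 31.3 FPKM, *Ccl27b*, a near copy of *Ccl27a*, read 70.2 and 27.1, and the protocadherin *Fat2* read 4.11 and 4.13. The DP papilla gene *Scube1*, which encodes a secreted protein, read 36.0 and 109 FPKM and was higher in DP library 2, as the DP marker list was. The part of papilla cell content in this was not tested.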
